A study of Mus musculus with 11 samples.

Results

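The 42 monocyte-lineage genes are a list of transcripts typical of blood monocytes, and all 42 were found by symbol among the 14739 genes of the deposited expression table. The genes were picked by name, but with earlier results of these data known, so their counts beside those of all genes are descriptive. RNA had been sequenced in bulk from Tmem119-positive cerebral microglia, sorted from aged C57BL/6 mice into lysis buffer. The 11 libraries formed 4 groups. Mice lacking 1 Csf1r copy (Csf1r+/-, here Csf1r_het) gave 3 libraries, mice lacking 1 Csf2 copy (Csf2+/-, Csf2_het) gave 3, mice lacking 1 copy of each (Csf1r+/-; Csf2+/-, Dhet) gave 2, and wild-type mice (WT) gave 3. All mice were 21 months old except Csf1r_het replicate 1 (20 months) and Csf1r_het replicate 2 and Dhet replicate 2 (24 months each). Csf1r encodes the receptor that CSF-1 and IL-34 share, and Csf2 encodes the cytokine GM-CSF. The labels describe no Cre driver or transgene, and they do not say whether a library came from a single mouse or a pool, so p-values measure the spread between these libraries.

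Monocytes leave the bone marrow as classical cells that carry Ly6C and the chemokine receptor CCR2, and some of them turn in the blood into non-classical cells that patrol vessel walls. CSF-1 signalling through its receptor supports the non-classical stage in particular, and GM-CSF acts on monocytes once they enter inflamed tissue. Microglia are seeded before birth and in the healthy adult brain renew themselves, so monocyte transcripts are scarce in pure microglia, although many of the 42 genes (Lyz2, Vim, Coro1a and the S100 and annexin genes among them) are also used by neutrophils, lymphocytes or activated microglia. In a bulk library, fewer cells of a type and less RNA per cell cannot be told apart.

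The libraries held between 21037819 and 53081638 reads assigned to genes, and 1 read equalled 0.479 to 1.48 normalized counts. Haemoglobin transcripts made up 16.1% to 58.8% of the counts, with the highest share in Csf1r_het replicate 2, which also had 15.6% of genes at 0 against 4.98% to 9.88% elsewhere. Dhet replicate 2 differed from all others in sex-linked transcripts (Ddx3y 717 and Xist 4.02 normalized counts, against at most 16.3 and at least 3011). Csf1r, the targeted receptor gene, held 17017, 40567 and 24022 normalized counts in the Csf1r_het libraries, 53873, 58211 and 66762 in the Csf2_het libraries, 40151 and 30254 in the Dhet pair, and 93319, 41261 and 63538 in WT, while Csf2 was not analysed here. The microglial markers Tmem119, P2ry12 and Siglech were present in every library, with Tmem119 between 5432 (WT replicate 2) and 31939 (Csf2_het replicate 2) normalized counts.

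WT replicate 2 stood apart, most strongly in the shorter members. Relative to the mean of WT replicates 1 and 3 it was higher by a median of 1.79 on the log2 scale over the 1120 tested genes whose longest transcript is at most 750 bases, and its median difference was -0.56 over the 4327 genes longer than 1500 and up to 3000 bases. The 9 members in the shortest class (Ear2, S100a4, S100a6, S100a10, S100a11, Crip1, Cd52, Lst1 and Ifitm2) were higher there by a median of 3.56. Over all 42 members, WT replicate 2 was the highest WT library for 25 and WT replicate 3 the lowest for 29. The counts of genes that fell, and of the interaction, are therefore also given without WT replicate 2.

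**Figure D1:**
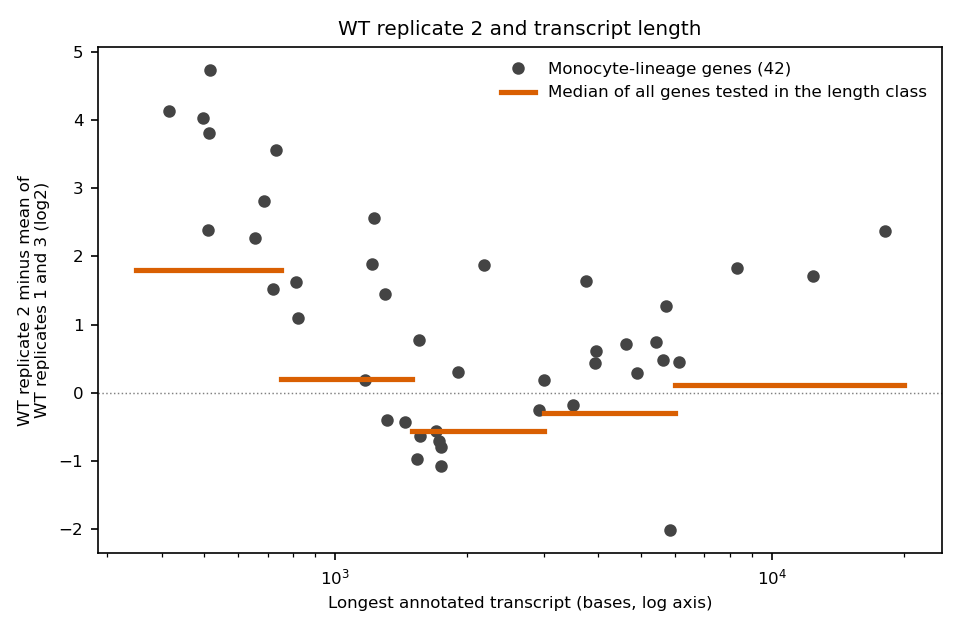
Each point is 1 of the 42 genes, placed by its longest annotated transcript (bases, log axis) and by WT replicate 2 minus the mean of WT replicates 1 and 3 (log2). Bars give the median of all genes tested in a length class, 1.79 for transcripts of up to 750 bases, where the points lie highest.

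The promoters of 5 members are shown, a member from each role list described below. Each was the gene of its list with the lowest p in an F test over the groups, among genes with a single RefSeq promoter. They were not picked by their pattern of calls. Ccr2 fell in Csf2_het and was not called in the others. Treml4, Cytip and Clec4a1 fell in all 3 heterozygous groups. Anxa2 fell in both single heterozygotes and was not called in Dhet. Each run covers 250 bases before to 50 bases after the RefSeq start on GRCm38.p6, written 5′ to 3′ on the gene's own strand. Capitals mark GAGGAA, the core bound by PU.1 (the myeloid regulator encoded by Spi1), read on both strands as GAGGAA or TTCCTC.
Ccr2 (chr9:124101933-124102232, forward strand): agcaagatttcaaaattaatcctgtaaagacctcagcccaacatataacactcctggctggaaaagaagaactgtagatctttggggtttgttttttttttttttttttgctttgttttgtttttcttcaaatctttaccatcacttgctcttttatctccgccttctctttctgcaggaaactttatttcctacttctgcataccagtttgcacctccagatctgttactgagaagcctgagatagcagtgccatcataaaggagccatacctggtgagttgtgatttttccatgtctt
Treml4 (chr17:48264045-48264344, forward strand): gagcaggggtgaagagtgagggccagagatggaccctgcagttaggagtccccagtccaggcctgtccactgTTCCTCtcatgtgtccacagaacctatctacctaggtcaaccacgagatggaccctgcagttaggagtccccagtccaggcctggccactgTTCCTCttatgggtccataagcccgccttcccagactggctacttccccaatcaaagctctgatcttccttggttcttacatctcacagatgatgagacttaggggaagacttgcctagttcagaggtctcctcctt
Anxa2 (chr9:69453433-69453732, forward strand): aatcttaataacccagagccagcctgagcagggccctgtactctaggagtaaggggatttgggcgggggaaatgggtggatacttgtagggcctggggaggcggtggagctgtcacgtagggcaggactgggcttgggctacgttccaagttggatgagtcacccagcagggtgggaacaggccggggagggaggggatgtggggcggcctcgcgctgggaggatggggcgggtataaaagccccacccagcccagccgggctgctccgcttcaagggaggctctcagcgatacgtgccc
Cytip (chr2:58160073-58160372, reverse strand): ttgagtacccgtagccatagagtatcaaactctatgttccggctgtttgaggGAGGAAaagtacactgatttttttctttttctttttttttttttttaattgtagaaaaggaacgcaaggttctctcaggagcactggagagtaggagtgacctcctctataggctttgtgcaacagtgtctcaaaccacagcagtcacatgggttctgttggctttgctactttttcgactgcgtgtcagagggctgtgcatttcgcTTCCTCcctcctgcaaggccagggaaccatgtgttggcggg
Clec4a1 (chr6:122921598-122921897, forward strand): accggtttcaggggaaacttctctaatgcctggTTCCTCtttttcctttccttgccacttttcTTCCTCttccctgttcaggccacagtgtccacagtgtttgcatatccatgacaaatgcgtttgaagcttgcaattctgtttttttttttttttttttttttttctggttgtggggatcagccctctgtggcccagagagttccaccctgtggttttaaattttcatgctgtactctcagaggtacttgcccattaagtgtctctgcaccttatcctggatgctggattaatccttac

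Treml4, Cytip and Clec4a1 each had 2 PU.1 cores in this window, and the Ccr2 and Anxa2 windows had none. A RefSeq promoter was found for 32 of the 42 members, in 39 windows. The core occurred in 43.6% of those windows and in 28.3% of all 32851 promoters of the same length. The palindrome TTCNNNGAA, which STAT factors bind downstream of cytokine receptors, occurred in 10.3% of the member windows (Chil3, Mgst1, Ifitm6 and Samhd1) and in 8.30% of all promoters. The motifs were counted separately and overlaps were not resolved, and a match is a description of the letters, not a binding site.

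All 42 genes passed the filter on low values. Against WT, 29 of the 42 genes fell in Csf2_het, 9 in Csf1r_het and 11 in Dhet, and none rose in any of the 3 groups, by limma or by the count tests edgeR and DESeq2, run on whole reads recovered from the normalized counts. Here fell and rose mean an adjusted p under 0.05 in limma, a linear model fitted over the 13223 genes tested, with log2 fold changes taken on normalized counts + 1. Among all genes tested, 2.84% were called lower in Csf2_het, 0.885% in Csf1r_het and 0.499% in Dhet. At an unadjusted p under 0.05 the counts in either direction were 41, 26 and 26. Over all 13223 genes tested they were 2287 in Csf2_het, 2139 in Csf1r_het and 1329 in Dhet. These all-gene counts are also the background for the unadjusted counts of the lists below. The median log2 fold change of the 42 genes was -1.42 in Csf1r_het, -2.68 in Csf2_het and -1.83 in Dhet, beside -0.12, -0.025 and 0.021 over all genes tested. In each group 41 of the 42 fold changes lay below 0, the exception being Thbs1 (1.01 in Csf1r_het, 0.48 in Csf2_het) and, in Dhet, Chil3 (0.31). Without WT replicate 2, 36 lay below 0 in Csf1r_het, 42 in Csf2_het and 41 in Dhet. In Csf1r_het the values of Crip1 (0.32), Plac8 (0.27), Lst1 (0.14), Cd52 (0.11) and S100a10 (0.076) were then above 0. In Csf2_het Thbs1 was then at -0.19, and in Dhet Chil3 was at -0.0095 and S100a10 at 0.35. None of these values was called.

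By library, 38 of the 42 genes were lower in every Csf2_het library than in any WT library (background 14.3% of genes tested), and the remaining 4 were Thbs1 and the short genes Crip1, Cd52 and Lst1. The same held for 18 genes in Csf1r_het (background 12.8%) and for 28 in Dhet (background 12.6%). Setting WT replicate 2 aside could only keep or raise the Csf2_het count, which stayed at 38 of the 42 genes, so this is no separate check. The 3 comparisons share the WT libraries, so their calls are not independent of each other.

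The genes sorted into a few patterns of calls. Treml4, Adgre4, Cd44, Adgre5, Cytip, Clec4a1 and Dpep2 fell in all 3 groups. Anxa2 and Rasgrp4 fell in both single heterozygotes, and Samhd1, Clec4a3 and Ifitm2 fell in Csf2_het and Dhet. A further 17 genes were called in Csf2_het alone, with Ccr2, Ly6c2, F13a1 and Vcan among them, and Ear2 was called in Dhet alone. The other 12 were called in no group: Lyz2, Thbs1, Gda, Ace, S100a4, S100a6, S100a10, Anxa5, Crip1, Emb, Cd52 and Lst1. A call in a single group does not show that the groups differ, which is tested directly further on.

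**Figure D2:**
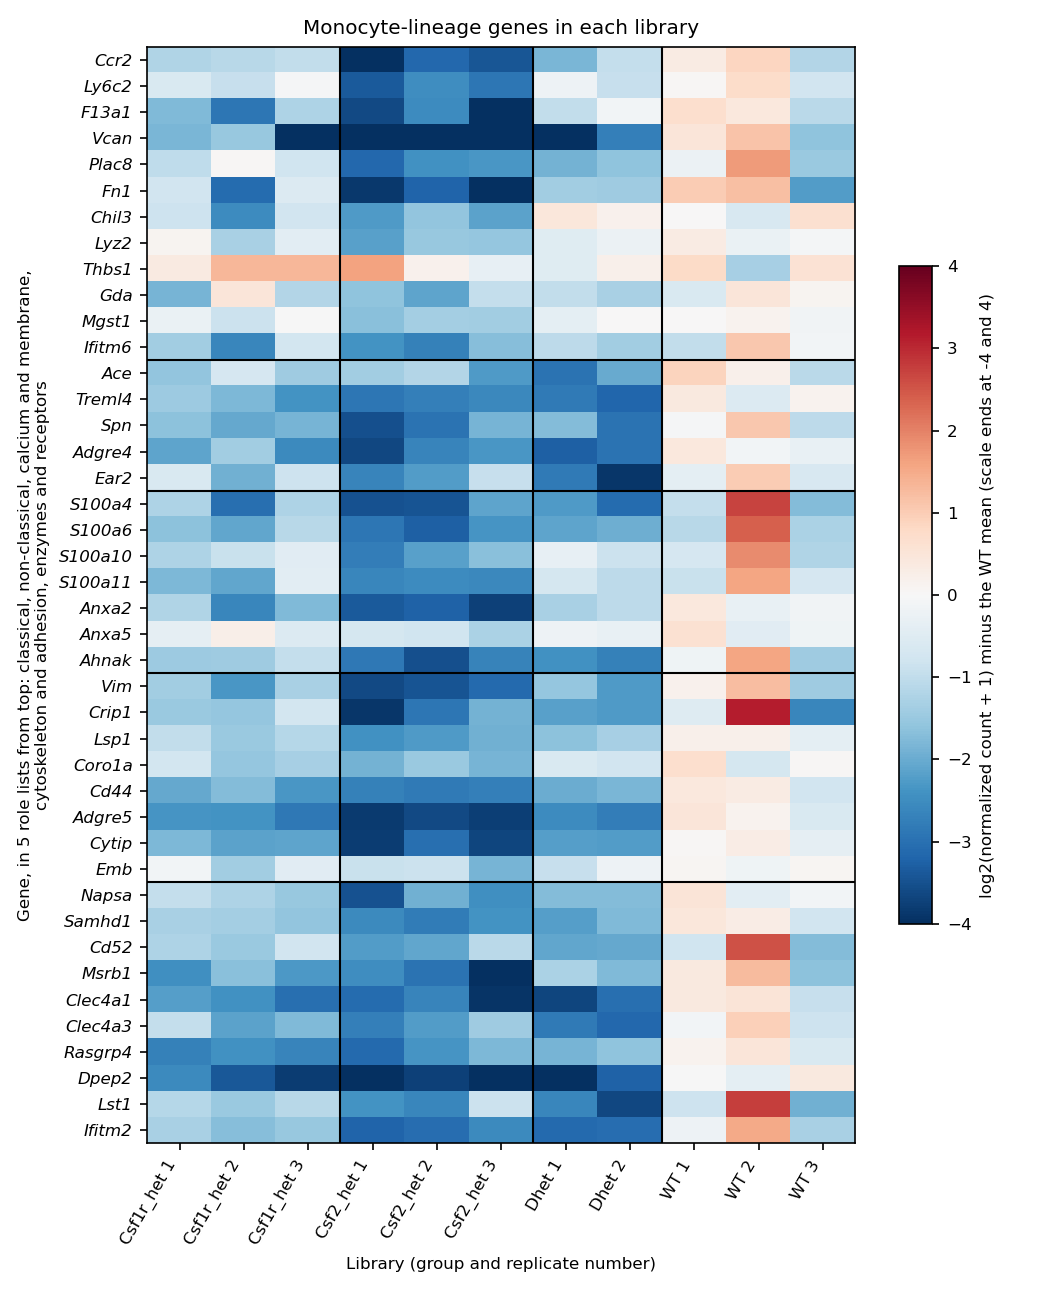
Rows are the 42 genes in 5 role lists and columns the 11 libraries. Colour gives the log2(normalized count + 1) minus the WT mean, ending at -4 and 4. The Csf2_het columns are the darkest blue for most classical genes, while the non-classical rows are about as dark in Dhet.

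How firmly these counts stand differs between the groups. In Csf2_het the count was 27 without WT replicate 2, and it dropped below 20 only without WT replicate 1 (19), without Csf2_het replicate 1 (18) or when only the Csf2_het and WT libraries were fitted (18). Over all genes tested these fits called 341, 146, 156 and 222 lower in Csf2_het. Fitting only the groups compared left 0 calls in Csf1r_het and 0 in Dhet. It also left 0 called lower in both among all 13223 genes tested, so these counts are not particular to the members. Scaling to equal totals without erythroid genes left 0 in Csf1r_het and 3 in Dhet, and 27 in Csf2_het (0, 17 and 240 over all genes). In Csf1r_het the count was 10 without WT replicate 2 (237 over all genes), but 0 without WT replicate 1 or Csf1r_het replicate 3 (0 over all genes in each). It was 3 without Csf1r_het replicate 1, 4 without Csf1r_het replicate 2 and 5 without Csf2_het replicate 2 (15, 25 and 39 over all genes). In Dhet it was 7 without WT replicate 2, 2 without WT replicate 1 and 17 without WT replicate 3. It was 7 without Csf1r_het replicate 1 or 3 and 6 without Csf2_het replicate 2. Without Dhet replicate 1 or 2 the remaining Dhet library is assumed to vary like the other groups, so the counts of those fits are not listed here. Over all genes tested, 66 were called lower in Dhet in the main fit, 30 without WT replicate 2, 5 without WT replicate 1 and 95 without WT replicate 3. The all-gene counts were 38 and 43 without Csf1r_het replicates 1 and 3, and 39 without Csf2_het replicate 2. Of the calls on the 25 genes given below with a value in every library, 15 of 21 in Csf2_het held in all 11 fits that left out a library, against 0 of 8 in Csf1r_het and 0 of 10 in Dhet.

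The classical list holds 12 genes of the Ly6C-high, CCR2-positive monocyte. Of these, 9 fell in Csf2_het and none was called in Csf1r_het or Dhet by limma, where 4 and 3 had an unadjusted p under 0.05, edgeR called 0 and DESeq2 1 in each. The median log2 fold change was -0.97 in Csf1r_het, -2.45 in Csf2_het and -0.85 in Dhet. Ccr2 held 3626, 3930 and 4231 normalized counts in the Csf1r_het libraries, 515, 950 and 790 in the Csf2_het libraries, 2354 and 4307 in the Dhet pair and 10496, 15123 and 3765 in the WT libraries. Ccr2 (ENSMUSG00000049103.14, chromosome 9, 124101950 to 124113557), the receptor for the chemokine CCL2, was thus at most 950 in each Csf2_het library and at least 2354 in every other library. Its mean was 752 ± 220.1 in Csf2_het and 9795 ± 5712 in WT (SD, n = 3 each), with a log2 fold change of -3.53 (SE 0.45, limma adjusted p = 0.00116).

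Ly6c2 held 14663, 11769 and 21324 normalized counts in the Csf1r_het libraries, 2149, 3985 and 3023 in the Csf2_het libraries, 19301 and 11839 in the Dhet pair and 23041, 36798 and 12958 in the WT libraries. Ly6c2 encodes the Ly6C antigen used to sort classical monocytes, and only its Csf2_het libraries lay apart from WT, while those of Csf1r_het and Dhet overlapped with it. The log2 fold change was -0.53 (SE 0.42) in Csf1r_het, -2.91 (SE 0.42, limma adjusted p = 0.00213) in Csf2_het and -0.56 (SE 0.46) in Dhet. Of its 31-base stretches 23.8% are shared with other genes, chiefly Ly6c1, so its reads cannot be told wholly apart from those of that paralog.

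F13a1 held 1069, 495 and 1546 normalized counts in the Csf1r_het libraries, 302, 643 and 172 in the Csf2_het libraries, 1853 and 3428 in the Dhet pair and 5788, 4863 and 1751 in the WT libraries. F13a1, the catalytic subunit of coagulation factor XIII, had its lowest mean in Csf2_het (log2 fold change -3.50, SE 0.58, limma adjusted p = 0.00547) and overlapped with WT in Dhet (-0.54, SE 0.65). Mgst1 held 4038, 2720 and 4837 normalized counts in the Csf1r_het libraries, 1531, 1903 and 1875 in the Csf2_het libraries, 3763 and 4958 in the Dhet pair and 4950, 5348 and 4432 in the WT libraries. Mgst1, a membrane-bound glutathione transferase, showed the same order with a smaller difference, -1.47 in Csf2_het (SE 0.28, limma adjusted p = 0.0123) against -0.38 in Csf1r_het and -0.18 in Dhet.

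Vcan, the matrix proteoglycan versican, had few reads. They numbered 60, 67 and 15 in the Csf1r_het libraries, 0, 2 and 0 in the Csf2_het libraries, 0 and 72 in the Dhet pair and 615, 646 and 80 in the WT libraries. The 2 reads of Csf2_het put its level at 0.136% of WT, with a 95% exact Poisson interval of 0.0165% to 0.493% that covers counting error only. It fell in Csf2_het (limma adjusted p = 0.0103), and the size of its fitted fold change depends on the added count of 1. The 2 Dhet libraries disagreed, with 0 reads in replicate 1.

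Of the other classical genes, Plac8 (-2.63), Fn1, which encodes fibronectin (-3.93), the chitinase-like Chil3 (-1.99) and Ifitm6 (-2.27) also fell in Csf2_het, with limma adjusted p between 0.0234 and 0.0360. Chil3 held 35970 and 29517 normalized counts in Dhet, against 26426, 16765 and 40709 in WT, and its Dhet value of 0.31 was not called. Lyz2, the macrophage lysozyme, was not called (-0.53 in Csf1r_het, -1.75 in Csf2_het, -0.35 in Dhet). Nor were the guanine deaminase gene Gda (-0.85, -1.56, -1.14) or Thbs1, thrombospondin-1, whose Csf2_het value changed sign without WT replicate 2 or Csf2_het replicate 1.

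**Figure D3:**
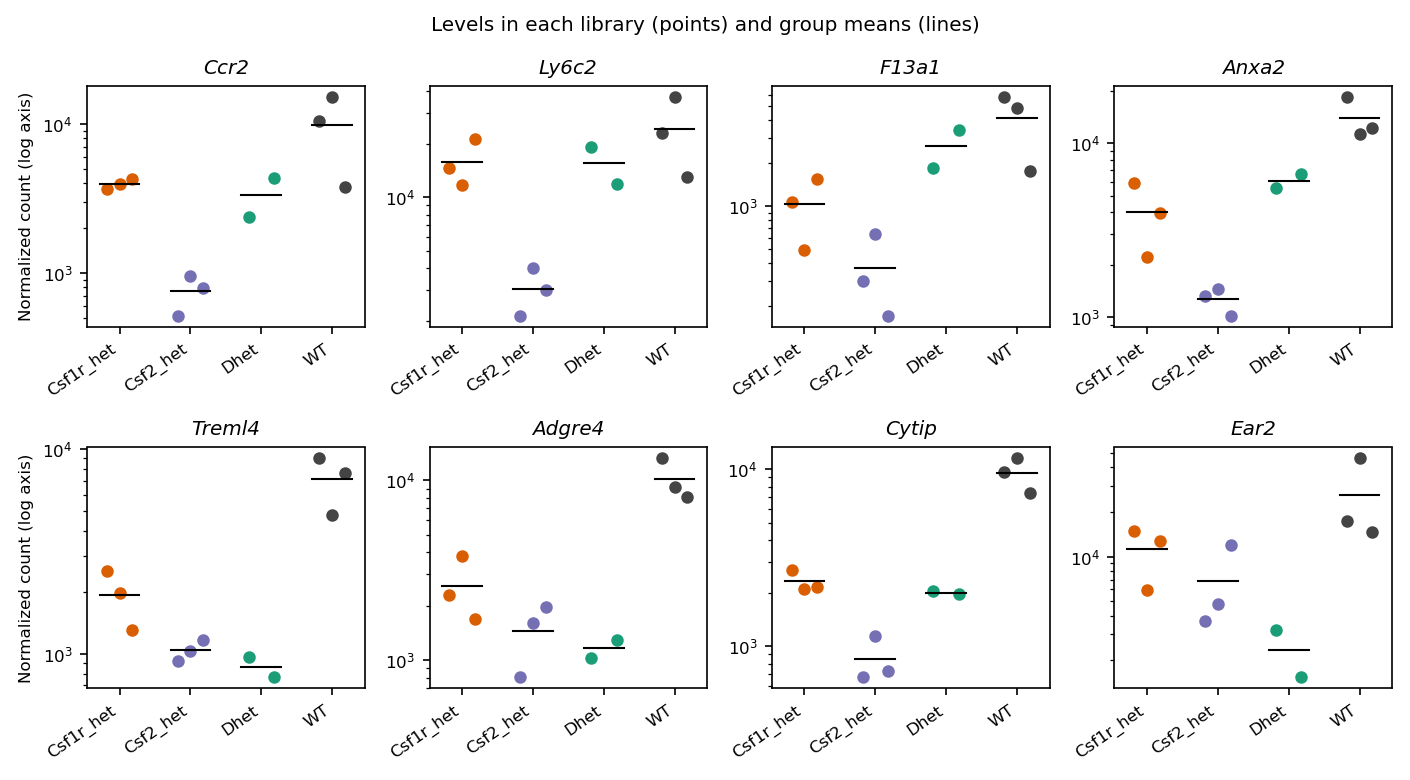
Points are libraries and lines group means, in normalized counts on a log axis, for 8 of the 42 genes. Ccr2, Ly6c2 and Anxa2 are lowest in the 3 Csf2_het libraries, whereas Ear2 is lowest in the 2 Dhet libraries and Treml4 and Adgre4 overlap between Csf2_het and Dhet.

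The non-classical list holds 5 genes of the patrolling monocyte. Treml4 and Adgre4 fell in all 3 heterozygous groups, Spn fell in Csf2_het, Ear2 fell in Dhet, and Ace was not called. The list median was -1.85 in Csf1r_het, -2.73 in Csf2_het and -3.00 in Dhet. Treml4 held 2525, 1975 and 1300 normalized counts in the Csf1r_het libraries, 918, 1033 and 1164 in the Csf2_het libraries, 963 and 766 in the Dhet pair and 9005, 4756 and 7608 in the WT libraries. Treml4 (ENSMUSG00000051682.15, chromosome 17, 48264295 to 48275360), a TREM-like receptor, was lower in each of the 8 heterozygous libraries than in any WT library. It fell in each group, with log2 fold changes of -1.88 in Csf1r_het (SE 0.33), -2.73 in Csf2_het (SE 0.33) and -3.00 in Dhet (SE 0.37) and limma adjusted p of 0.0233, 0.000775 and 0.00638.

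Adgre4 held 2297, 3789 and 1694 normalized counts in the Csf1r_het libraries, 802, 1604 and 1974 in the Csf2_het libraries, 1034 and 1301 in the Dhet pair and 13251, 9214 and 8136 in the WT libraries. Adgre4 is an adhesion G protein-coupled receptor, and it too separated all 8 heterozygous libraries from WT, with -2.02 in Csf1r_het, -2.87 in Csf2_het and -3.10 in Dhet (limma adjusted p = 0.0321, 0.00164 and 0.0121). Ear2 held 14785, 5961 and 12743 normalized counts in the Csf1r_het libraries, 3676, 4801 and 11979 in the Csf2_het libraries, 3178 and 1535 in the Dhet pair and 17405, 45755 and 14689 in the WT libraries. Ear2, a secreted ribonuclease, was lowest in Dhet (-3.36, SE 0.61, limma adjusted p = 0.0320), and its Csf1r_het and Csf2_het values of -1.13 and -1.93 were not called. Its Dhet call held in 4 of the 11 fits that left out a library, and was lost without WT replicate 1 or 2, among others. Ear2 shares 60.5% of its 31-base stretches with other genes, chiefly Ear1, so its level is uncertain.

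Spn held 1233, 942 and 1074 normalized counts in the Csf1r_het libraries, 341, 506 and 1063 in the Csf2_het libraries, 1155 and 500 in the Dhet pair and 3735, 8270 and 1897 in the WT libraries. Spn, the sialomucin CD43, was lower in each of the 8 heterozygous libraries than in any WT library, though only its Csf2_het value of -2.77 was called (SE 0.54, limma adjusted p = 0.0139). Ace held 2010, 3716 and 2199 normalized counts in the Csf1r_het libraries, 2283, 2626 and 1247 in the Csf2_het libraries, 772 and 1487 in the Dhet pair and 11052, 6826 and 2798 in the WT libraries. Ace, the angiotensin-converting enzyme, had its lowest mean in Dhet, with -1.23 in Csf1r_het, -1.61 in Csf2_het and -2.47 in Dhet and adjusted p of 0.241, 0.0945 and 0.0816. WT replicate 3 had the lowest WT level of both genes.

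The balance between the classical and non-classical lists can be read in each library as the median of the 12 genes minus the median of the 5, both relative to the WT mean. It was 0.64, 0.61 and 1.10 in the Csf1r_het libraries, 0.14, 0.18 and 0.034 in the Csf2_het libraries, 1.85 and 2.02 in the Dhet pair and -0.20, 0.41 and 0.17 in the WT libraries. The Dhet libraries were thus the highest and the Csf2_het libraries lay within the WT range. These lists are short and were chosen with results of the data known, so the values are a description with no test.

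**Figure D4:**
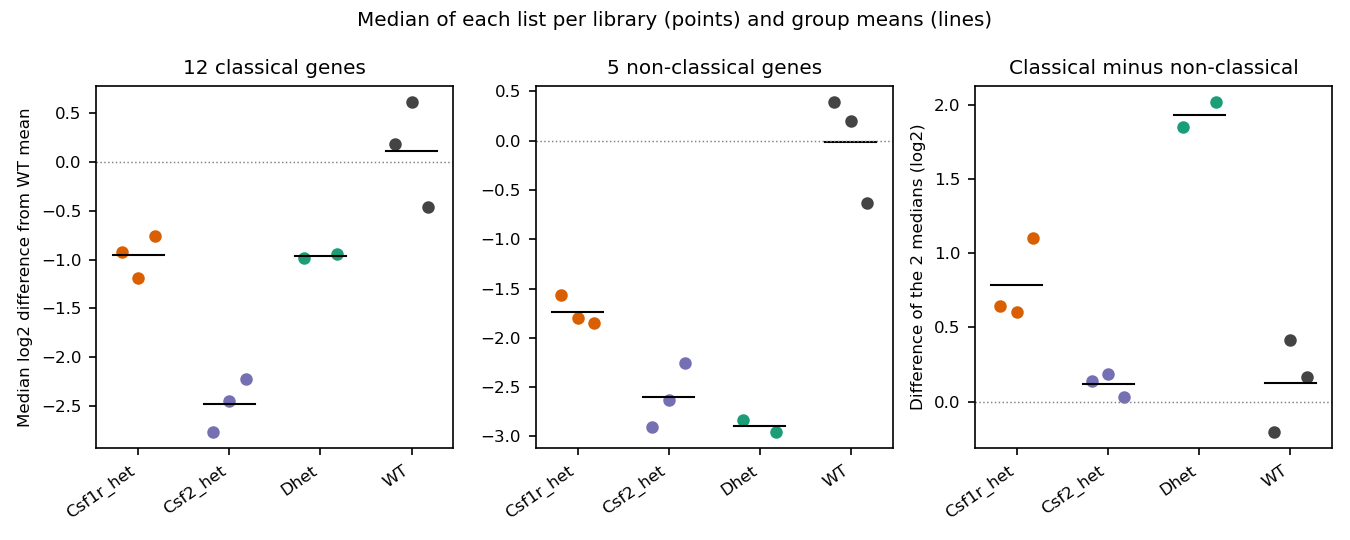
Points are libraries and lines group means of the median log2 difference from the WT mean over the 12 classical genes (left) and the 5 non-classical genes (middle), and of their difference (right). On the right the 2 Dhet libraries sit at 1.85 and 2.02, above all others.

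The calcium and membrane list holds 4 S100 calcium-binding proteins, the annexins Anxa2 and Anxa5, which bind phospholipids when calcium rises, and the giant scaffold Ahnak. Anxa2 fell in both single heterozygotes, S100a11 and Ahnak fell in Csf2_het, and no gene of the list was called in Dhet by limma, where 4 had an unadjusted p under 0.05, edgeR called 0 and DESeq2 2. The list median was -1.43 in Csf1r_het, -2.84 in Csf2_het and -1.17 in Dhet. Anxa2 held 5873, 2214 and 3988 normalized counts in the Csf1r_het libraries, 1319, 1456 and 1018 in the Csf2_het libraries, 5517 and 6633 in the Dhet pair and 18431, 11222 and 12276 in the WT libraries. Anxa2 (ENSMUSG00000032231.14, chromosome 9, 69453620 to 69491795) was low in all heterozygous libraries and lowest in Csf2_het, where the highest value was 1456. It fell in Csf1r_het (-1.87, SE 0.36, limma adjusted p = 0.0317) and in Csf2_het (-3.45, SE 0.36, limma adjusted p = 0.000387), and its Dhet value of -1.17 (SE 0.40, 0.335) was not called.

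Ahnak held 1414, 1449 and 1999 normalized counts in the Csf1r_het libraries, 538, 344 and 606 in the Csf2_het libraries, 725 and 602 in the Dhet pair and 3490, 11665 and 1464 in the WT libraries. Ahnak fell in Csf2_het (-3.01, SE 0.57, limma adjusted p = 0.0118), and its Csf1r_het and Dhet values were -1.29 and -2.56. S100a11 held 4245, 3558 and 11226 normalized counts in the Csf1r_het libraries, 2442, 2609 and 2476 in the Csf2_het libraries, 9217 and 7169 in the Dhet pair and 7971, 44754 and 9258 in the WT libraries. S100a11 fell in Csf2_het (-2.57, SE 0.58, limma adjusted p = 0.0285), where its 3 libraries lay within 2442 to 2609, while WT spanned 7971 to 44754.

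S100a6 held 6192, 4602 and 8992 normalized counts in the Csf1r_het libraries, 2617, 2005 and 3776 in the Csf2_het libraries, 4535 and 4963 in the Dhet pair and 9060, 100829 and 8027 in the WT libraries. S100a10 held 1774, 2231 and 3055 normalized counts in the Csf1r_het libraries, 619, 921 and 1303 in the Csf2_het libraries, 3315 and 2310 in the Dhet pair and 2633, 15327 and 1802 in the WT libraries. S100a10 is the partner that Anxa2 binds in a membrane complex, and for both genes most of the WT spread came from WT replicate 2. Neither was called in Csf2_het (S100a6 -2.84, adjusted p = 0.0520, and S100a10 -2.20, adjusted p = 0.0734). Without WT replicate 2 the S100a10 value turned to 0.076 in Csf1r_het and 0.35 in Dhet, so its direction there rests on that library. S100a4 (-1.84, -3.02 and -2.68) and Anxa5 (-0.22, -0.92 and -0.26, in the order Csf1r_het, Csf2_het, Dhet) were not called in any group.

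In the cytoskeleton and adhesion list, 3 of 8 genes fell in Csf1r_het, 6 in Csf2_het and 3 in Dhet, with medians of -1.46, -2.82 and -1.90. Adgre5, Cytip and Cd44 fell in all 3 groups. Adgre5 held 2690, 2664 and 1915 normalized counts in the Csf1r_het libraries, 974, 1131 and 1021 in the Csf2_het libraries, 2401 and 2032 in the Dhet pair and 19359, 15116 and 9063 in the WT libraries. Adgre5 (ENSMUSG00000002885.14, chromosome 8, 83723251 to 83741326) encodes the leukocyte adhesion receptor CD97, and every heterozygous library lay below the lowest WT library. It had the smallest adjusted p among the 42 genes in Csf1r_het, -2.53 (SE 0.31, limma adjusted p = 0.00855), and log2 fold changes of -3.73 in Csf2_het (SE 0.31, 0.000157) and -2.65 in Dhet (SE 0.34, 0.00897). Ddx39 shares 19.3% of its 31-base stretches.

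Cytip held 2697, 2113 and 2174 normalized counts in the Csf1r_het libraries, 668, 1145 and 725 in the Csf2_het libraries, 2049 and 1966 in the Dhet pair and 9650, 11528 and 7342 in the WT libraries. Cytip, which restrains integrin adhesion in leukocytes, averaged 2328 ± 321 in Csf1r_het and 846 ± 261 in Csf2_het (SD, n = 3 each), 2008 ± 58.6 in the Dhet pair (n = 2) and 9507 ± 2097 in WT (n = 3). Relative to WT these were log2 fold changes of -2.01, -3.51 and -2.22 (limma adjusted p = 0.0112, 0.000157 and 0.0131). Cd44 held 1577, 2000 and 1300 normalized counts in the Csf1r_het libraries, 1017, 936 and 995 in the Csf2_het libraries, 1661 and 1845 in the Dhet pair and 8861, 8249 and 3916 in the WT libraries. Cd44, the hyaluronan receptor, fell in each group, with -2.04 in Csf1r_het, -2.75 in Csf2_het and -1.91 in Dhet (limma adjusted p = 0.0170, 0.000775 and 0.0407).

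Lsp1 held 9202, 6487 and 8176 normalized counts in the Csf1r_het libraries, 3384, 3745 and 4773 in the Csf2_het libraries, 5790 and 7249 in the Dhet pair and 20878, 20832 and 13697 in the WT libraries. Vim held 4018, 2083 and 4324 normalized counts in the Csf1r_het libraries, 863, 964 and 1210 in the Csf2_het libraries, 3613 and 2209 in the Dhet pair and 11857, 24914 and 3935 in the WT libraries. Lsp1 is an actin-binding protein of leukocytes and Vim the intermediate filament vimentin, and both fell in Csf2_het, with -2.21 (SE 0.29, limma adjusted p = 0.00131) and -3.39 (SE 0.54, limma adjusted p = 0.00456). Neither was called in Csf1r_het (-1.20 and -1.67) or in Dhet (-1.48 and -1.90). Coro1a, which binds actin at the leukocyte cortex, fell in Csf2_het (-1.75, limma adjusted p = 0.0250), while Crip1 (-1.26, -2.90 and -2.22) and Emb (-0.65, -1.20 and -0.57) were not called. Crip1 varied widely within WT, with 237419 normalized counts in WT replicate 2 and 18473 and 4335 in the other WT libraries.

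The remaining list gathers 10 myeloid enzymes, receptors and signalling proteins. Of these, 3 fell in Csf1r_het, 8 in Csf2_het and 5 in Dhet, with medians of -1.56, -2.61 and -2.53. Clec4a1 held 1012, 883 and 573 normalized counts in the Csf1r_het libraries, 556, 750 and 311 in the Csf2_het libraries, 364 and 575 in the Dhet pair and 6151, 6724 and 2490 in the WT libraries. Clec4a1, a C-type lectin, was at most 1012 in each heterozygous library and at least 2490 in each WT library. Its log2 fold changes were -2.55 in Csf1r_het, -3.21 in Csf2_het and -3.35 in Dhet (limma adjusted p = 0.0246, 0.00204 and 0.0131).

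Dpep2 held 461, 261 and 196 normalized counts in the Csf1r_het libraries, 143, 205 and 150 in the Csf2_het libraries, 35.3 and 289 in the Dhet pair and 2680, 2101 and 3605 in the WT libraries. Dpep2, a membrane dipeptidase that cleaves leukotrienes, had the lowest value of the list in each group, -3.25 in Csf1r_het, -4.05 in Csf2_het and -4.73 in Dhet (limma adjusted p = 0.0349, 0.00473 and 0.0133). The 2 Dhet libraries differed widely, and 41.0% of its 31-base stretches are shared with other entries, mostly one of the same symbol. Samhd1 held 4235, 4088 and 3480 normalized counts in the Csf1r_het libraries, 1761, 1486 and 1992 in the Csf2_het libraries, 2241 and 3031 in the Dhet pair and 14310, 12727 and 6162 in the WT libraries. Samhd1, which hydrolyses deoxynucleotides, fell in Csf2_het (-2.58, limma adjusted p = 0.00115) and Dhet (-1.99, limma adjusted p = 0.0338), and its Csf1r_het value of -1.41 was not called (0.0576).

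Napsa held 7041, 5822 and 4809 normalized counts in the Csf1r_het libraries, 1209, 3571 and 2466 in the Csf2_het libraries, 4107 and 4108 in the Dhet pair and 19614, 10130 and 12673 in the WT libraries. Napsa, an aspartic protease, fell in Csf2_het (-2.63, SE 0.39, limma adjusted p = 0.00266) and was at -1.22 in Csf1r_het and -1.73 in Dhet. Ifitm2 held 15999, 12045 and 13722 normalized counts in the Csf1r_het libraries, 4239, 4708 and 6597 in the Csf2_het libraries, 4556 and 4714 in the Dhet pair and 33817, 111205 and 15703 in the WT libraries. Ifitm2, an interferon-induced membrane protein, fell in Csf2_het (-2.94, limma adjusted p = 0.00964) and Dhet (-3.07, limma adjusted p = 0.0419), with 55.5% of its 31-base stretches shared with other genes. Clec4a3, another C-type lectin, fell in the same groups (-2.13 and -2.99), and Rasgrp4, an activator of Ras, fell in Csf1r_het (-2.59) and Csf2_het (-2.41). Msrb1, a methionine sulfoxide reductase, fell in Csf2_het (-3.23), and Cd52 and Lst1 were not called in any group.

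**Figure D5:**
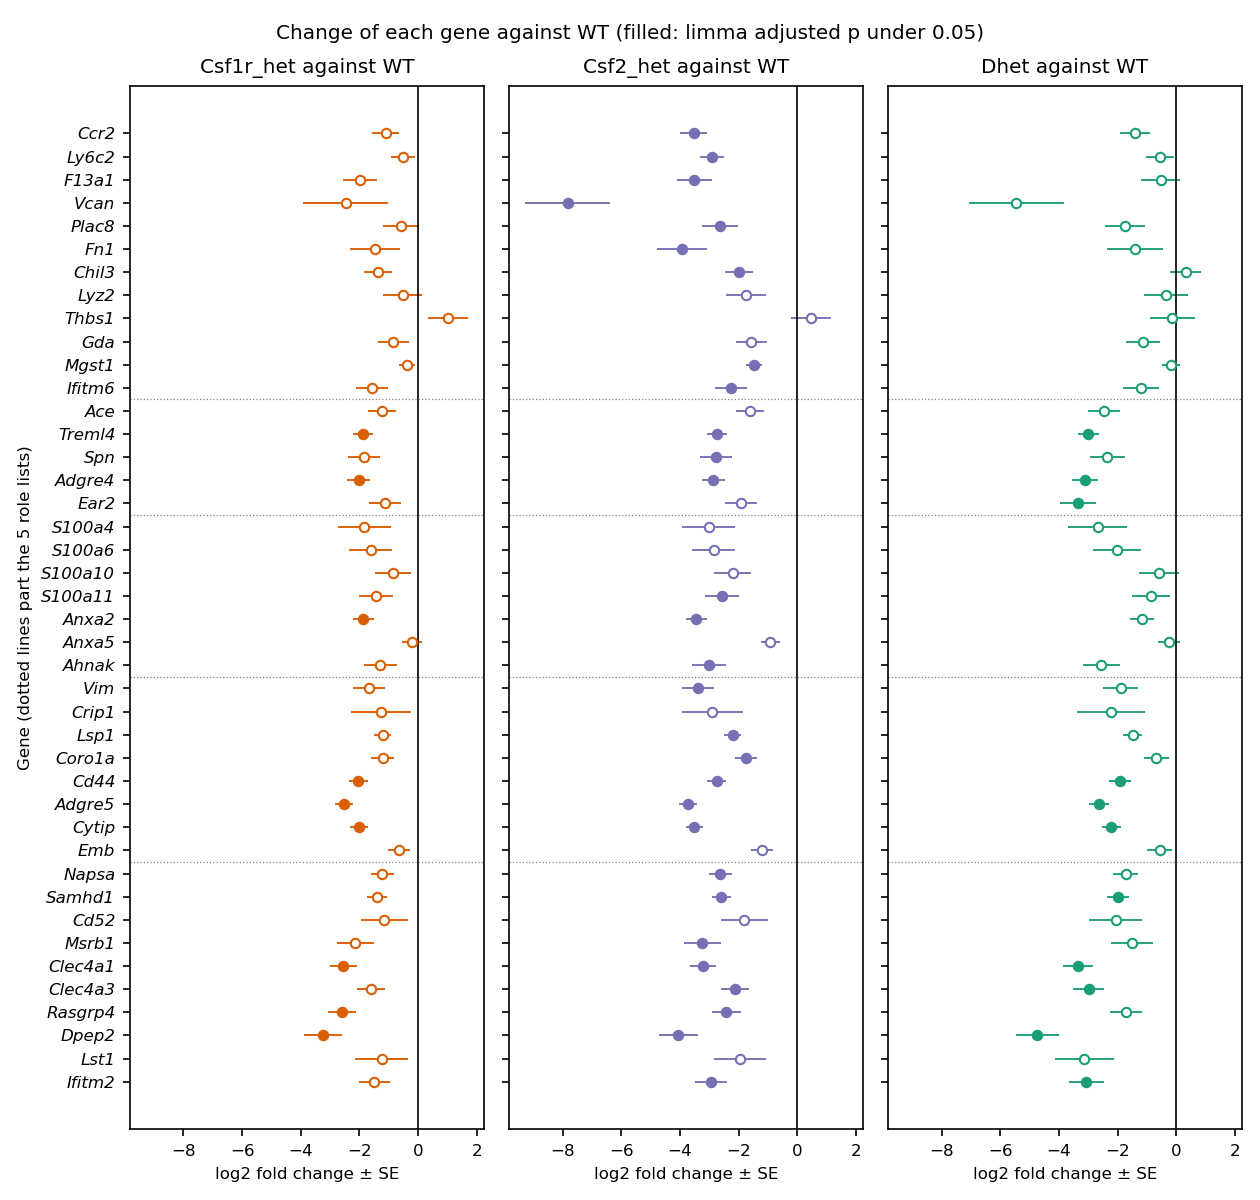
Log2 fold change ± SE of each of the 42 genes against WT, in Csf1r_het (left), Csf2_het (middle) and Dhet (right). Filled points passed limma's adjusted p of 0.05, 9, 29 and 11 of the 42, and the Vcan values depend on the added count of 1.

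The heterozygous groups were then compared with each other. Every Csf2_het library lay below every Csf1r_het library for 24 of the 42 genes (background 5.98%), and every Dhet library lay above every Csf2_het library for 23 (background 16.7%). The 23 comprised 9 of 12 classical, 5 of 7 calcium and membrane, 6 of 8 cytoskeleton and 3 of 10 enzyme and receptor genes, and none of the 5 non-classical genes. Among the classical genes Ly6c2 held 19301 and 11839 normalized counts in Dhet, against 2149, 3985 and 3023 in Csf2_het, and F13a1 held 1853 and 3428 in Dhet, against 302, 643 and 172 in Csf2_het.

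Tested directly, none of these differences passed in limma after adjustment over all genes. For Csf1r_het against Csf2_het 0 of 42 genes were called (background 0.0227%), with 18 at an unadjusted p under 0.05 and a smallest adjusted p of 0.155. For Dhet against Csf2_het the count was likewise 0 (background 0.0227%), with 17 unadjusted and a smallest adjusted p of 0.110, that of Anxa2 (log2 difference 2.27, SE 0.40). For Dhet against Csf1r_het it was 0 (background 0.00756%), with 8 unadjusted and a smallest adjusted p of 0.382, that of Ear2 (-2.23, SE 0.61). Over all 13223 genes tested, 592, 1083 and 1390 had an unadjusted p under 0.05 in these comparisons, in the same order. EdgeR on the recovered reads also called 0 of the 42 in each. DESeq2 called 6 higher in Csf1r_het than in Csf2_het (Ccr2, Ly6c2, Vcan, Fn1, Anxa2 and Cytip), 6 higher in Dhet than in Csf2_het (Ccr2, Ly6c2, F13a1, Chil3, Mgst1 and Anxa2) and Ear2 lower in Dhet than in Csf1r_het. Over all genes tested, DESeq2 called 52, 113 and 63 in these directions, in the same order.

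The interaction asks whether the Dhet change equals the sum of the 2 single changes, as Dhet minus Csf1r_het minus Csf2_het plus WT on the log2 scale. A positive value means that Dhet was higher than that sum. It was called positive for 10 of the 42 genes (background 1.20%) and negative for none, with a median of 2.22 beside 0.15 over all genes tested. At an unadjusted p under 0.05 in either direction there were 28 of the 42, beside 2385 of the 13223 genes tested. EdgeR called 8 and DESeq2 23 of the 42 positive and none negative, beside 126 and 522 positive over all genes tested. The 10 were the classical genes Ccr2, Ly6c2, F13a1 and Chil3, the adhesion and cytoskeleton genes Lsp1, Cd44, Adgre5 and Cytip, and Anxa2 and Rasgrp4. F13a1, for example, had -1.97 in Csf1r_het, -3.50 in Csf2_het and -0.54 in Dhet, an interaction of 4.93 (SE 0.87, limma adjusted p = 0.0175). None of the 5 non-classical genes was called by limma, of which 3 had an unadjusted p under 0.05, nor by edgeR or DESeq2, and Ear2 was the nearest to additive at -0.30 (SE 0.82).

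The interaction count was 18 without WT replicate 2 and 3 without WT replicate 1, beside 474 and 36 positive over all genes tested (159 in the main fit). It was 6 and 5 without Csf1r_het replicates 1 and 3 (78 and 54 over all genes). Without Csf2_het replicates 1, 2 and 3 it was 4, 6 and 5 (50, 71 and 62 over all genes). Counts without Dhet replicate 1 or 2 are not listed, because the remaining Dhet library is assumed to vary like the other groups. Of the 8 called genes given above with values in every library, Anxa2, Adgre5 and Cytip were called in each of the 11 fits that left out a library. Cd44 kept its call in 8 of those fits, F13a1 in 7, Ly6c2 in 3, and Ccr2 and Lsp1 in 2 each.

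Of 15 tested genes of traffic, 3 fell in Csf1r_het, 6 in Csf2_het and 2 in Dhet, and none rose by limma (6, 9 and 6 had an unadjusted p under 0.05, edgeR called none higher and DESeq2 1 higher in Csf2_het). Itgal, the LFA-1 integrin chain, fell in all 3 groups (-2.30, -3.50 and -2.74) and held 1872, 3054 and 1919 normalized counts in the Csf1r_het libraries, 1130, 833 and 967 in the Csf2_het libraries, 2130 and 1263 in the Dhet pair and 15712, 13417 and 6233 in the WT libraries. Itga4 and Itgb1, the chains of the VLA-4 integrin, and Itgb7 fell in Csf2_het (-2.59, -1.33 and -3.93), and Itga4 fell in Dhet (-2.68). Cxcr4, the receptor that retains leukocytes in the marrow, fell in Csf1r_het (-2.40) and Csf2_het (-2.09). The 3 calls in Csf1r_het dropped to 0 without Csf1r_het replicate 1 or 3 or WT replicate 1 and to 1 without Csf1r_het replicate 2 or Csf2_het replicate 1 or 2, and the 2 in Dhet to 0 without Dhet replicate 1 or WT replicate 1 and to 1 without Dhet replicate 2 or WT replicate 2.

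Itgb7 and Itgal also had a positive interaction (3.69, SE 0.71, limma adjusted p = 0.0241, and 3.06, SE 0.56, limma adjusted p = 0.0201). The chemokine gene Ccl2 was not called (0.66 in Csf1r_het, 1.47 in Csf2_het and 1.87 in Dhet), and Cx3cr1, shared by microglia and non-classical monocytes, was not called either (0.61, 1.14 and 0.32).

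Of 15 tested regulators of monocyte development, 1 fell in Csf1r_het, 4 in Csf2_het and 2 in Dhet, and none rose by limma, edgeR or DESeq2 (6, 8 and 9 had an unadjusted p under 0.05 in limma). Klf2 fell in all 3 groups (-2.23, -3.16 and -2.42). Nr4a1, the nuclear receptor on which non-classical monocytes depend, held 808, 1482 and 323 normalized counts in the Csf1r_het libraries, 697, 699 and 302 in the Csf2_het libraries, 677 and 719 in the Dhet pair and 7680, 2276 and 3846 in the WT libraries, and it was called in Csf2_het (-2.94, SE 0.57, limma adjusted p = 0.0129). Bcl6 fell in Csf2_het (-1.83) and Dhet (-2.38), and Spi1, which encodes PU.1, in Csf2_het (-1.15, limma adjusted p = 0.0391). Irf8, needed for the monocyte lineage and also used by microglia, was not called in any group (-0.0027, 0.078 and 0.31). The 4 calls in Csf2_het dropped to 2 without Csf1r_het replicate 1 or 3 or Csf2_het replicate 1 or 2, and to 1 without Csf2_het replicate 3 or WT replicate 1. The 1 call in Csf1r_het was 0 without any 1 of the Csf1r_het libraries, Csf2_het replicate 2 or WT replicate 1, and 2 without WT replicate 2 or 3. The 2 calls in Dhet were 0 in 9 of the 11 fits that left out a library, 2 without Csf1r_het replicate 2 and 3 without WT replicate 3.

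Markers of other cells moved with the groups too. The summed level of 12 microglial markers ran from 323023 to 375067 normalized counts in Csf1r_het, 478035 to 624203 in Csf2_het, 408535 to 510882 in Dhet, and 123367 to 329225 in WT, with 2 of the WT libraries below all the others. All 12 had fold changes above 0 in each of the 3 groups, opposite in sign to most of the 42 genes, with medians of 0.70 in Csf1r_het, 1.23 in Csf2_het and 1.11 in Dhet. By limma P2ry12, Siglech and Sall1 rose in Csf2_het (1.55, 1.43 and 1.50), where 10 of the 12 had an unadjusted p under 0.05, edgeR called 3 higher and DESeq2 7. The limma count was 2 without WT replicate 2, 1 without Csf1r_het replicate 1, and 0 without Csf1r_het replicate 3, WT replicate 1 or any 1 of the Csf2_het or Dhet libraries. None was called in Csf1r_het or Dhet by limma or edgeR, where 4 and 6 had an unadjusted p under 0.05 in limma, and DESeq2 called 2 and 1 higher. The summed level of 13 neutrophil markers was 29393 to 496806 in the Csf1r_het libraries, 122534 to 204931 in the Csf2_het libraries, 741275 and 793935 in the Dhet pair and 56029 to 859327 in the WT libraries, the highest being WT replicate 3. None of the 13 was called against WT by limma (0, 2 and 2 with an unadjusted p under 0.05 in Csf1r_het, Csf2_het and Dhet) or by edgeR, and DESeq2 called 1 lower in Csf2_het. S100a8 held 33493, 10476 and 167621 in the Csf1r_het libraries, 83831, 38023 and 82630 in the Csf2_het libraries, 197892 and 248159 in the Dhet pair and 11860, 124512 and 285184 in the WT libraries. The part of these cells in the values of the 42 genes was not tested.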

How the data were processed

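Coverage per gene is given as a deposited signal. The authors quantified reads with kallisto 0.43.1 on mm10 and divided each library's gene counts by a DESeq2 size factor, per the submitters' processing notes and the file headers, which gives normalized counts. No source used here gives a DESeq2 version. Each library's values were whole multiples of 1 step, 100% of them whole to within 0.02 reads, and dividing by that step recovered the reads and depths.

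The 42 members and all lists were chosen with earlier results of these data known. Values were tested as log2(normalized count + 1) with limma 3.58.1 in R 4.3.3, in 1 fit of the 4 groups with a trended prior (7 residual and 5.90 prior degrees of freedom) and Benjamini-Hochberg adjustment at 0.05. Because the values are normalized, limma took the place of the edgeR test planned for raw counts. Genes with a mean of at least 10 were tested, 13223 of 14739, with 1516 left out. Fold changes of low genes are understated. Alternatives included edgeR 4.0.16 and DESeq2 1.42.0 on the recovered reads, and the fit was tested on simulated data.

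Values in every library are given for Ccr2, Ly6c2, Ace, Treml4, Spn and the 5 genes with the lowest F-test p in each role list (25 genes). Of the marker lists, called genes and up to 2 others are named. Shared 31-base stretches and transcript lengths come from GENCODE vM21, and promoters from RefSeq. Ddx3y, Xist and Csf1r were chosen after their values were seen. Some genes counted in the lists are not reported here by name.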

Additional observations from a re-analysis of the deposited data

Results flagged for a closer look

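For 10 of the 42 genes limma's interaction term called a difference in the effect of losing a Csf2 copy between mice with and without both Csf1r copies. Ccr2 and Lsp1 kept this call in 2 of the 11 fits that left out a library, and Ly6c2 in 3. On the log2 scale the interaction was 4.93 for F13a1, 4.14 for Anxa2, 3.68 for Chil3, 3.62 for Adgre5 and 3.30 for Cytip. It was 3.27 for Rasgrp4, 3.23 for Ccr2, 2.88 for Ly6c2, 2.87 for Cd44 and 1.93 for Lsp1. All 10 were positive, that is, higher in Dhet than the sum of the single changes. Anxa2 held 5517 and 6633 normalized counts in Dhet, above all 3 Csf2_het libraries (1319, 1456 and 1018) and overlapping with Csf1r_het (5873, 2214 and 3988), against 18431, 11222 and 12276 in WT. The neutrophil markers were also summed highest in both Dhet libraries among the heterozygous groups, and their part in these values was not tested.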

How the results depend on the processing

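The counts of genes called lower were 9 in Csf1r_het, 29 in Csf2_het and 11 in Dhet, and 10 had a positive interaction. With DESeq2 on the recovered reads they were 18 in Csf1r_het, 22 in Dhet and 23 for the interaction (386, 276 and 522 over all genes). DESeq2 called 6, 6 and 1 for Csf1r_het against Csf2_het, Dhet against Csf2_het and Dhet against Csf1r_het, where limma called 0. In the directions of those calls, DESeq2 called 52, 113 and 63 over all genes. With edgeR 5 were called in Dhet (23 over all genes). Fitting only the groups compared left 0 in Csf1r_het, 18 in Csf2_het and 0 in Dhet, and called 1 for Csf1r_het against Csf2_het. Over all genes tested that fit called 0, 222 and 0 lower against WT. Equal totals without erythroid genes left 0 in Csf1r_het and 3 in Dhet (0 and 17 over all genes). Age as a covariate left 6 in Dhet (47 over all genes), and median centring left 6 for the interaction (119 over all genes). With the transcript length trend removed, an alternative chosen after seeing the data, the interaction count was 16 (131 over all genes). That fit called 1 for Csf1r_het against Csf2_het and 2 for Dhet against Csf2_het.

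Leaving out each library in turn gave 0 to 12 in Csf1r_het, 18 to 32 in Csf2_het, 0 to 17 in Dhet, 3 to 18 for the interaction and 0 to 1 for Csf1r_het against Csf2_het. The medians ran from -1.97 to -1.04 in Csf1r_het, -2.99 to -2.18 in Csf2_het and -2.38 to -1.29 in Dhet. With WT replicate 2 and Csf1r_het replicate 2 both left out, the medians were -0.79, -2.18 and -1.29, and the interaction count was 19 (731 over all genes). That fit called 2 and 4 for Csf1r_het against Csf2_het and Dhet against Csf2_het. With both left out, 35 of the 42 values lay below 0 in Csf1r_het, 42 in Csf2_het and 41 in Dhet, and the values above 0 included Ly6c2 in Csf1r_het (0.033) and S100a10 in Csf1r_het (0.096) and Dhet (0.35). With equal totals 39 lay below 0 in Dhet, with Mgst1 (0.035) and Thbs1 (0.079) turned. Anxa5 turned without WT replicate 1 in Csf1r_het (0.095) and Dhet (0.055). None of the values that turned was called. Over the fits that left out 1 library, Mgst1 in Dhet ran from -0.38 to 0.018 and S100a10 from -1.47 to 0.076 in Csf1r_het and -1.20 to 0.35 in Dhet. The cause was not tested.

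Same-numbered libraries did not deviate together (correlations from -0.21 to 0.062). With the replicate number as a block (replicate block), 4 genes were called lower in Csf1r_het, 24 in Csf2_het, 8 in Dhet and 3 for the interaction. Over all genes tested that fit called 23, 217 and 45 lower and 12 with a positive interaction. Median centring moved the all-gene median by 0.13 in Csf1r_het and by -0.24 for the interaction, and equal totals moved it by 0.21 in Dhet. Depth limited Vcan most, with 0 to 2 reads in the Csf2_het libraries.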

Other observations

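Other blood and border cells were looked at through lists of markers. Of 10 border macrophage markers 6 were tested, and Mrc1, Cd163, Lyve1 and Cd209f were not analysed here. Clec12a, an inhibitory lectin that monocytes also carry, was the one called, and it fell in Csf2_het (-2.26, SE 0.32, limma adjusted p = 0.00223). It held 3122, 1906 and 2589 normalized counts in the Csf1r_het libraries, 618, 1116 and 877 in the Csf2_het libraries, 2511 and 4509 in the Dhet pair and 4351, 3978 and 3847 in the WT libraries, and its interaction was positive at 2.70 (SE 0.49, limma adjusted p = 0.0191). Pf4, a chemokine of platelets and border macrophages, was not called (0.86 in Csf1r_het, 1.06 in Csf2_het and -1.06 in Dhet).

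No dendritic cell (6 tested), T and NK cell (11), B cell (8), erythroid (7), fibroblast and endothelial (3) or astrocyte (6) marker was called against WT by limma or edgeR in any group, and DESeq2 called 1, 1 and 2 lower for dendritic, T and NK, and B cells and 1 higher for astrocytes, all in Csf2_het. At an unadjusted p under 0.05 in limma the numbers in Csf1r_het, Csf2_het and Dhet were 0, 1 and 0 for dendritic cells, 0, 2 and 0 for T and NK cells, 1, 3 and 0 for B cells, 0 throughout for erythroid genes, 1 in each for fibroblast and endothelial genes, and 0, 1 and 1 for astrocytes. The summed B cell markers were 6853 to 71475 normalized counts in the Csf1r_het libraries, 7739 to 27731 in the Csf2_het libraries, 11186 and 22594 in the Dhet pair and 13190 to 43778 in the WT libraries. These sums overlapped, and Igkc alone held 42746 in Csf1r_het replicate 3. Gene by gene, all 8 B cell fold changes lay below 0 in each group, with medians of -0.96 in Csf1r_het, -2.21 in Csf2_het and -1.03 in Dhet. For T and NK cells the sums were 3386 to 6025 in the Csf1r_het libraries, 1575 to 2494 in the Csf2_het libraries, 2727 and 2766 in the Dhet pair and 1276 to 6770 in the WT libraries.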
